A study of Arabidopsis thaliana with 18 samples.

Results

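The 10 genes described here are core components of the Arabidopsis circadian clock and 1 of its outputs: CCA1, LHY, PRR9, PRR7, PRR5, TOC1, GI, ELF4, LUX and GRP7. They were taken from the tables by locus identifier and are 10 of the 28642 loci in the deposited tables. RNA was sequenced from whole first-leaf pairs of Col-0 plants at 16 and 9 DAS (days after stratification), which the labels call the expansion and proliferation stages. The groups are P10 and P21, which carry PID under the constitutive 35S promoter and are independent lines of the same construct, and the untransformed wild type (WT). All plants were grown in long days on agar with sugar and without further treatment. Values exist for 3 libraries each of P10 and WT and 2 of P21 (replicates 2 and 3) on each day, 16 in all, and P21 replicate 1 was not analysed here. The hour of harvest is not given in the sources used here.

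The plant clock is a set of transcription factors that repress each other in sequence through the day. CCA1 and LHY, a pair of MYB-like factors, peak around dawn and repress genes expressed later in the day. The pseudo-response regulators follow in the order PRR9, PRR7, PRR5 and TOC1, and repress CCA1 and LHY in turn. GI peaks towards evening, and ELF4 and LUX are subunits of the evening complex, which acts at night. In leaves the clock times photosynthesis, starch use, growth and flowering.

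Libraries held 1193042 to 4695692 unique gene reads, with a median of 2631344. Levels below are given as CPM, unique gene reads scaled to the size of each library with TMM factors. PID itself was at 368 to 961 CPM in P10 and P21 libraries and at 3.19 to 5.92 CPM in WT libraries. The leaf markers RBCS1A, LHCB1.2, LHCB2.1 and GAPA1 summed to 26800 to 43200 CPM. The 3 root markers summed to at most 6.71 CPM and the 4 markers of shoot apex and flower to at most 4.29 CPM, with AP1 at 0 reads in every library. Libraries of WT and P10 at 9 DAS carry one second index and all other libraries another, so day and index cannot be told apart in WT and P10, nor can line and index in P21 against either of them at 9 DAS. In P21, both days carry the same index. The deposited library names give P21 replicate 2 at 9 DAS a different lane tag from all other libraries. Replicates 2 of WT and of P10 at 9 DAS stood apart for the clock genes: between them they held the highest 9 DAS value of 8 of the 10 genes. Counts of the 10 genes called across days and in the lines against WT are also given with WT and P10 at 9 DAS reduced to replicates 1 and 3. Fold changes and the lists of other clock genes are given on all libraries unless stated.

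CCA1 (AT2G46830, TAIR10 chr2:19245672-19248914) showed the tightest values of the set at 16 DAS. In the order of replicates, CCA1 was at 630, 658 and 557 CPM in P10, 589 and 628 CPM in P21, and 588, 672 and 614 CPM in WT at 16 DAS. At 9 DAS it was at 259, 39.0 and 115 CPM in P10, 132 and 241 CPM in P21, and 78.9, 26.2 and 225 CPM in WT. Every 16 DAS library lay above every 9 DAS library, and the highest value was 1.2 times the lowest at 16 DAS, against 9.91 times at 9 DAS. LHY (AT1G01060, chr1:33379-37871), the partner of CCA1, had 832, 900 and 959 CPM in P10, 631 and 867 CPM in P21, and 640, 884 and 709 CPM in WT at 16 DAS. At 9 DAS LHY was at 440, 11.9 and 116 CPM in P10, 128 and 451 CPM in P21, and 67.1, 3.95 and 344 CPM in WT. The 9 DAS libraries again did not reach the 16 DAS range, and they differed 114-fold among themselves. The lowest value, in WT replicate 2, rests on 8 reads, with an exact Clopper-Pearson 95% interval of 1.7 to 7.78 CPM. Such intervals cover counting error only.

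**Figure D1:**
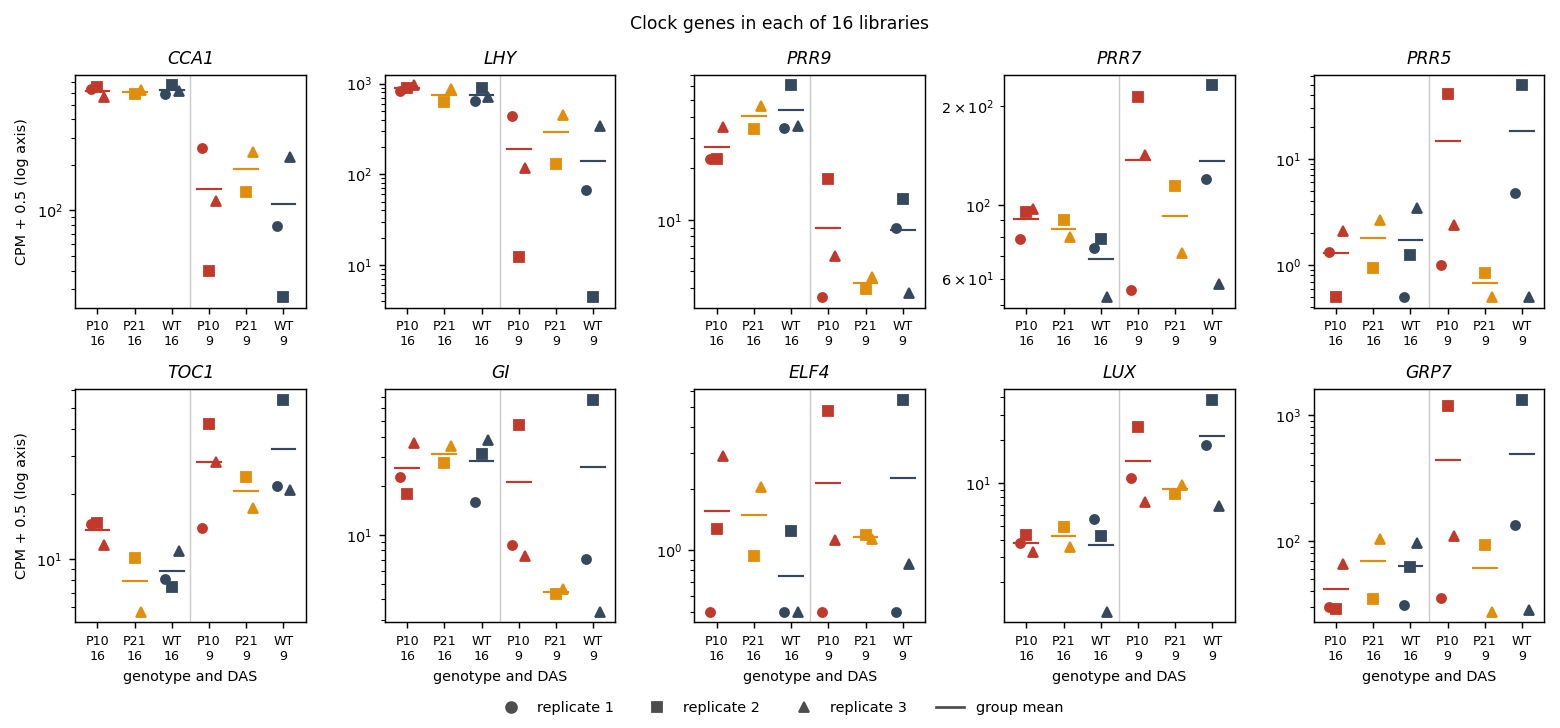
Level of each clock gene (CPM + 0.5, log axis) in every library, by genotype and DAS; symbols mark the replicate number and bars the group mean. CCA1 and LHY at 16 DAS lie above every 9 DAS library, and replicates 2 of P10 and WT at 9 DAS hold the lowest CCA1 and LHY and the highest GRP7, PRR5, PRR7, TOC1, GI, ELF4 and LUX values of that day.

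PRR9 (AT2G46790, chr2:19232649-19235087), the earliest of the daytime repressors, was the third gene whose days did not overlap. At 16 DAS PRR9 was at 22.2, 22.2 and 34.1 CPM in P10, 33.4 and 45.8 CPM in P21, and 33.8, 60.6 and 35.0 CPM in WT. At 9 DAS its level was 3.04, 16.8 and 5.64 CPM in P10, 3.45 and 4.13 CPM in P21, and 8.51, 12.8 and 3.22 CPM in WT. WT replicate 2 was highest at 16 DAS, and replicates 2 of P10 and of WT were highest at 9 DAS. Only 60.23% of the total reads of PRR9 were unique, so part of its signal is shared with similar sequence; the other 9 genes had all reads unique.

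PRR7 (AT5G02810, chr5:637897-641977), the next repressor in the sequence, had overlapping levels on the 2 days. At 16 DAS PRR7 was at 78.8, 95 and 96.7 CPM in P10, 89.5 and 79.6 CPM in P21, and 74, 78.7 and 52.2 CPM in WT. The 9 DAS libraries had 54.9, 212 and 142 CPM in P10, 114 and 71.1 CPM in P21, and 120, 231 and 57.2 CPM in WT. The 16 DAS values fell within or close to the 9 DAS range, whose extremes were replicate 1 of P10 and replicate 2 of WT.

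PRR5 (AT5G24470, chr5:8355951-8358873), an afternoon repressor, was near the detection limit in most libraries. At 16 DAS PRR5 was at 0.821, 0 and 1.58 CPM in P10, 0.439 and 2.15 CPM in P21, and 0, 0.745 and 2.98 CPM in WT, from at most 7 reads. At 9 DAS it was at 0.506, 40.5 and 1.88 CPM in P10, 0.345 and 0 CPM in P21, and 4.25, 48.9 and 0 CPM in WT. The 2 high values came from 133 reads in P10 replicate 2 and 99 reads in WT replicate 2, with exact 95% intervals of 33.9 to 48.0 and 39.7 to 59.5 CPM. Libraries at 0 allow up to 1.17 to 1.41 CPM, the upper ends of their exact 95% intervals.

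TOC1 (AT5G61380, chr5:24675064-24678550), the evening member of the family, was lower at 16 DAS in P21 and WT without overlap. At 16 DAS TOC1 was at 14, 14.2 and 11.1 CPM in P10, 9.65 and 5.23 CPM in P21, and 7.65, 6.95 and 10.4 CPM in WT. At 9 DAS TOC1 reached 13.4, 41.7 and 27.6 CPM in P10, 23.4 and 16.8 CPM in P21, and 21.3, 53.8 and 20.4 CPM in WT. P10 replicate 1 at 9 DAS lay inside the 16 DAS range of P10, and all other 9 DAS libraries lay above all those of 16 DAS.

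GI (AT1G22770, chr1:8061844-8067716) encodes a scaffold for the F-box photoreceptors ZTL and FKF1. At 16 DAS GI was at 22.2, 17.2 and 36.1 CPM in P10, 27.2 and 34.7 CPM in P21, and 15.3, 30.8 and 38 CPM in WT. The 9 DAS libraries had 8.10, 46.6 and 6.89 CPM in P10, 3.79 and 4.13 CPM in P21, and 6.62, 67.1 and 2.86 CPM in WT. Replicates 2 of P10 and WT at 9 DAS exceeded every 16 DAS library, while the 6 other 9 DAS libraries lay below every 16 DAS library.

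ELF4 (AT2G40080, chr2:16734294-16734912) is the small subunit of the evening complex and was the least counted gene. At 16 DAS ELF4 was at 0, 0.766 and 2.38 CPM in P10, 0.439 and 1.54 CPM in P21, and 0, 0.745 and 0 CPM in WT. At 9 DAS it was at 0, 4.27 and 0.627 CPM in P10, 0.689 and 0.635 CPM in P21, and 0, 4.94 and 0.358 CPM in WT. The highest values, in replicates 2 of P10 and WT at 9 DAS, rest on 14 and 10 reads, and no difference between the remaining libraries was detectable at this depth. LUX (AT3G46640, chr3:17183070-17185218), the DNA-binding subunit, had 3.28, 3.83 and 2.77 CPM in P10, 4.39 and 3.07 CPM in P21, and 5.10, 3.72 and 0.745 CPM in WT at 16 DAS. Its 9 DAS levels were 10.4, 24.1 and 6.89 CPM in P10, 7.92 and 9.21 CPM in P21, and 18, 38 and 6.44 CPM in WT. LUX was the 1 gene of the set whose 16 DAS libraries all lay below its 9 DAS libraries.

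GRP7 (AT2G21660, chr2:9265249-9266393) encodes an RNA-binding protein of a clock output loop, with an evening peak. At 16 DAS GRP7 was at 29.6, 28.4 and 65.4 CPM in P10, 34.2 and 104 CPM in P21, and 30.6, 62 and 95.4 CPM in WT. At 9 DAS GRP7 was at 34.9, 1180 and 110 CPM in P10, 93.4 and 27.0 CPM in P21, and 134, 1320 and 27.9 CPM in WT. Apart from replicates 2 of P10 and WT at 9 DAS, both days covered much the same range. On the deposited RPKM scale, which divides by the length of the gene region, medians at 16 DAS ran from 159 for CCA1 and 158 for LHY through 34.7 for GRP7, 17.7 for PRR9, 16.6 for PRR7, 3.99 for GI and 2.37 for TOC1 to 1.45 for LUX, 0.774 for ELF4 and 0.241 for PRR5. The ranges over the 8 libraries of CCA1 and LHY (145 to 198 and 112 to 196 RPKM) overlapped, as did those of PRR9 and PRR7 (13.8 to 34.5 and 10.8 to 22.7 RPKM). At 9 DAS the median of GRP7 came first, with 89.8 RPKM and a range of 24.8 to 1220, followed by 38.7 for CCA1, 29.5 for PRR7, 27.6 for LHY, 6.58 for TOC1, 4.73 for LUX, 3.04 for PRR9, 1.16 for GI, 1.05 for ELF4 and 0.409 for PRR5. Neighbours in that order overlapped in range. Genes further apart could be separated, as PRR7 was, at 13.7 to 59.8 RPKM, from PRR9, at 2.48 to 11 RPKM.

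CCA1 and GRP7 were set against each other in each library. The CCA1 to GRP7 ratio was 6.07 to 23.2 over the 16 DAS libraries. At 9 DAS it was 7.42, 0.0331 and 1.05 in P10, 1.42 and 8.92 in P21, and 0.588, 0.0198 and 8.06 in WT. P10 and WT each held libraries of high and of low ratio at 9 DAS, while both P21 libraries were above 1. The LHY to CCA1 ratio also varied, between 1.07 and 1.72 at 16 DAS and between 0.151 and 1.87 at 9 DAS, and LHY was below CCA1 in none of the 8 libraries at 16 DAS and in 4 of the 8 at 9 DAS. On a log2 CPM scale the SD over the 8 libraries of a day had a median over the 10 clock genes of 0.479 at 16 DAS and 1.17 at 9 DAS, beside 0.389 and 0.334 over the 16499 genes tested.

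**Figure D2:**
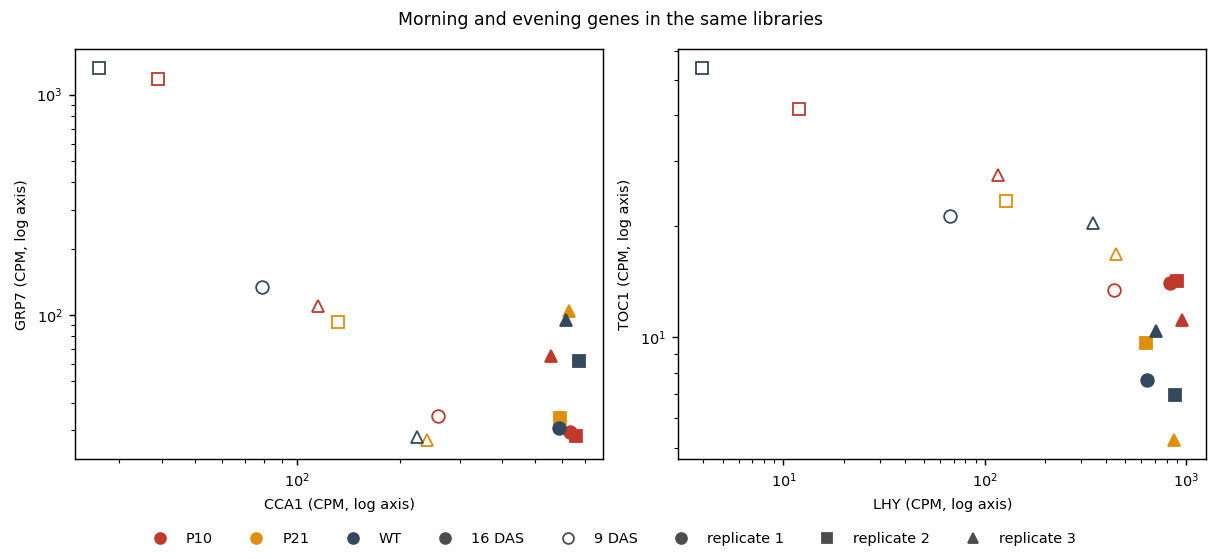
CCA1 against GRP7 and LHY against TOC1 in the same 16 libraries (CPM, log axes); filled symbols are 16 DAS, open symbols 9 DAS, colours the genotype and shapes the replicate. The 16 DAS libraries sit together at CCA1 of 557 to 672 CPM, and the 9 DAS libraries spread from GRP7 of 27.0 CPM with CCA1 of 241 CPM to GRP7 of 1320 CPM with CCA1 of 26.2 CPM.

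The comparison of days asks how the transcriptome of the expanding leaf differs from that of the proliferating leaf in each genotype. Because the hour of harvest is not given, leaf stage and time of day cannot be told apart in it. All 10 genes passed the filter on low counts. A gene was called with an adjusted p under 0.05 in edgeR's quasi-likelihood test, adjusted by Benjamini and Hochberg over 16499 genes, and a log2 fold change beyond 0.75. In P10, 3 of the 10 were called, 2 higher and 1 lower at 16 DAS, where 31% of all genes tested were called, 16.6% higher and 14.4% lower. In P21, 1 was called, higher, against a background of 23.7% (12.7% higher and 11% lower). In WT, 4 were called, 2 in each direction, against 36% (18.6% higher and 17.3% lower). In none of the genotypes was the share of clock genes called far above that of all genes. The libraries of all genotypes together did not overlap between days for 3 genes that were higher and 1 that was lower at 16 DAS, where 10.6% and 8.44% of all genes did so. In bulk leaf RNA, fewer cells expressing a gene and less RNA per cell cannot be told apart.

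PRR9 was higher at 16 DAS in all 3 genotypes. It averaged 26.2 ± 6.86 CPM at 16 DAS and 8.48 ± 7.29 CPM at 9 DAS in P10 (SD, n = 3 each), with a log2 fold change of 1.61 ± 0.535 (SE, edgeR adjusted p = 0.029). In P21 the means were 39.6 ± 8.81 CPM at 16 DAS and 3.79 ± 0.482 CPM at 9 DAS (SD, n = 2 each), a log2 fold change of 3.38 ± 0.697 (edgeR adjusted p = 0.0033). WT averaged 43.1 ± 15.1 CPM at 16 DAS and 8.19 ± 4.81 CPM at 9 DAS (SD, n = 3 each), a log2 fold change of 2.48 ± 0.534 (edgeR adjusted p = 0.0021). Counted on total reads, the PRR9 change remained called in the 3 genotypes.

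CCA1 was called in P10 and WT. Its means were 615 ± 52.0 CPM at 16 DAS and 138 ± 112 CPM at 9 DAS in P10, a log2 fold change of 2.15 ± 0.729 (SE, edgeR adjusted p = 0.037), and 624 ± 42.9 CPM at 16 DAS and 110 ± 103 CPM at 9 DAS in WT, with 2.49 ± 0.741 (edgeR adjusted p = 0.018). For P21 the fitted change was 1.71 ± 0.876 on the log2 scale and missed the threshold (edgeR adjusted p = 0.18). LHY, with larger differences between 9 DAS libraries, was not called in any genotype. Its log2 fold changes were 2.23 ± 1.24 in P10, 1.37 ± 1.47 in P21 and 2.41 ± 1.25 in WT, although its libraries did not overlap between days.

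LUX fell in P10 by 2.1 ± 0.683 on the log2 scale (SE, edgeR adjusted p = 0.024) and in WT by 2.46 ± 0.631 (edgeR adjusted p = 0.0054), and had a log2 fold change of −1.22 ± 0.814 in P21 (edgeR adjusted p = 0.29). TOC1 fell in WT by 1.98 ± 0.471 (edgeR adjusted p = 0.0034), and its fitted log2 changes in P10 and P21 were −1.07 ± 0.454 and −1.47 ± 0.586 (edgeR adjusted p = 0.075 and 0.076). The 5 other genes were not called in any genotype. PRR7 had log2 fold changes of −0.584 in P10, −0.134 in P21 and −0.969 in WT. GRP7 was fitted at −3.4 ± 1.57 in P10, 0.217 ± 1.78 in P21 and −3.02 ± 1.52 in WT, that is, large in size with an error to match. GI had 0.24, 2.96 and 0.144 in P10, P21 and WT. PRR5 and ELF4, with libraries at 0 reads, have fitted fold changes that depend on the prior count and are not given.

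**Figure D3:**
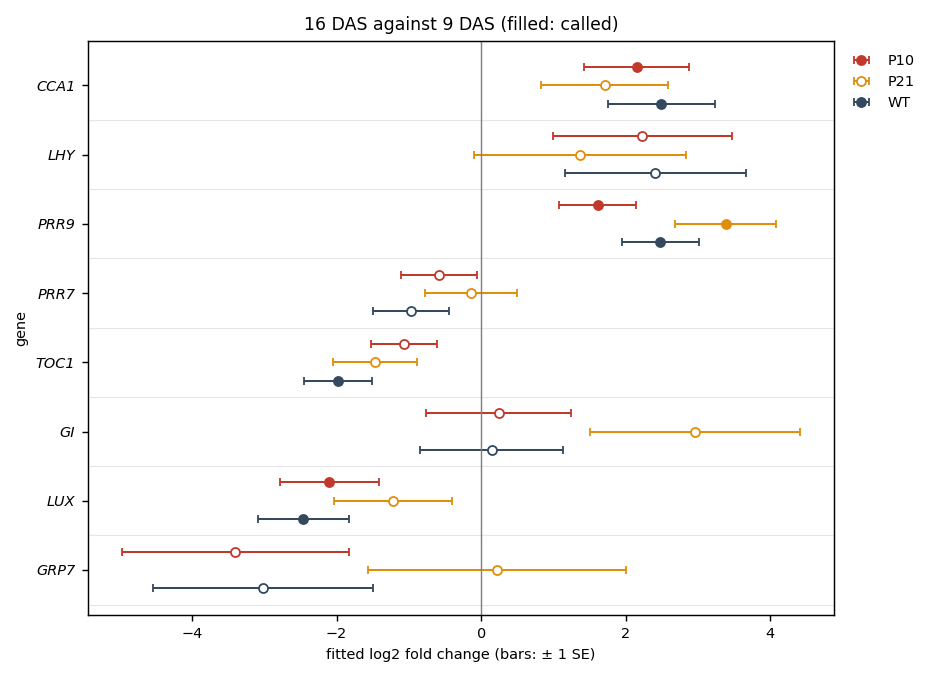
Fitted log2 fold change of 16 against 9 DAS for each clock gene in P10, P21 and WT, with bars of 1 SE; filled points were called. PRR9 is called in all 3 genotypes (1.61, 3.38 and 2.48), CCA1 and LUX in P10 and WT, and TOC1 in WT. PRR5 and ELF4, with libraries at 0 reads, are not drawn.

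These counts depend on single libraries. In P10 the count was 1 without P10 9 DAS replicate 2 (PRR9 left), 1 without its 9 DAS replicate 3 (LUX left), 1 without 16 DAS replicate 1 or replicate 2 (PRR9 left) and 0 without 16 DAS replicate 3. In P21 it was 2 without P10 9 DAS replicate 1 or replicate 2 and 3 without WT 9 DAS replicate 2, since all groups share 1 estimate of the spread. The WT count ranged from 3 to 6 and kept PRR9, TOC1 and LUX each time. With WT and P10 at 9 DAS reduced to replicates 1 and 3, 4 genes were called in P10 (CCA1, PRR9, GI and LUX), 4 in P21 (CCA1, PRR9, TOC1 and GI) and 5 in WT (CCA1, PRR9, TOC1, GI and LUX). Those 2 libraries were chosen with their clock gene values known and hold the only GI values at 9 DAS above the 16 DAS range, so the added GI calls in P10 and WT follow from that choice and are no support for a change. No P21 library was left out there. The added P21 calls (CCA1, TOC1 and GI) rest on the shared estimate of the spread, which no longer held those 2 libraries. They follow from the same choice and are no support for a change either.

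The comparison of PID overexpression lines with WT asks which genes respond to PID at each stage. None of the 10 clock genes was called at 16 DAS, in P10 (15.8% of all genes tested called) or P21 (0.127%), or at 9 DAS, in P10 (0.339%) or P21 (5.39%). None of them had an unadjusted p under 0.05 in this edgeR fit, and DESeq2 called none. With a replicate block within each day, PRR5 was called in P21 at 9 DAS, on few reads. At 16 DAS, where its replicates were tight, CCA1 averaged 615 ± 52.0 CPM in P10, 609 ± 27.6 CPM in P21 and 624 ± 42.9 CPM in WT (SD, n = 3, 2 and 3). Other members varied more on that day, such as GRP7 at 41.1 ± 21.0 CPM in P10, 68.9 ± 49.1 CPM in P21 and 62.7 ± 32.4 CPM in WT. The P10 to WT log2 fold change of CCA1 was −0.022 ± 0.694 and that of P21 to WT −0.0366 ± 0.775 (SE), an error set by the spread over both days. The same holds for the other clock genes and for P10 against P21, since all groups share 1 estimate of the spread per gene. At 9 DAS the median SD of log2 CPM was 1.17 over the clock genes and 0.334 over all genes tested. The absence of a call at 16 DAS therefore does not show equal levels. Nor do the shares of all genes called there come from genes of like spread. LHY had 0.269 ± 1.18 in P10 and 0.00933 ± 1.32 in P21 against WT.

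Among the repressors, PRR9 differed most in the fit for P10 at 16 DAS. It averaged 26.2 ± 6.86 CPM there against 43.1 ± 15.1 CPM in WT, a log2 fold change of −0.729 ± 0.463 (edgeR adjusted p = 0.3). TOC1 averaged 13.1 ± 1.72 CPM in P10 and 8.34 ± 1.84 CPM in WT at 16 DAS, with a log2 fold change of 0.703 ± 0.519 (edgeR adjusted p = 0.37). The P10 and WT libraries did not overlap for TOC1 and for PRR7 (lowest P10 78.8 CPM, highest WT 78.7 CPM), where 19.4% of all genes were higher in P10 without overlap. PRR7 was also higher without overlap in P21, 79.6 and 89.5 CPM against at most 78.7 CPM in WT, where 13.7% of genes were. At 9 DAS no clock gene was free of overlap between a line and WT, where 17.1% of all genes were in P10 and 37.8% in P21. The fitted differences of P21 from WT at 9 DAS were −2.62 ± 1.41 for GI and −3.04 ± 1.78 for GRP7, and P21 lacked a library like replicate 2 of WT. With WT and P10 at 9 DAS reduced to replicates 1 and 3, again none was called in P21 or P10.

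P10 against P21 gave no call among the 10 genes at 16 DAS (14.9% of all genes called) or 9 DAS (0.0364%). TOC1 was higher in P10 than in P21 without overlap at 16 DAS, 11.1 to 14.2 CPM in P10 and 5.23 to 9.65 CPM in P21, where 23.9% of genes were, with a log2 fold change of 0.845 ± 0.587 (edgeR adjusted p = 0.36). At 9 DAS GI was higher in P10 without overlap, 6.89 to 46.6 CPM in P10 and 3.79 to 4.13 CPM in P21, where 12.4% of genes were. PRR5 did not overlap either, but its nearest libraries held 2 reads in P10 and 1 read in P21, within counting error of each other. An interaction term asked whether the effect of a line changed with the day. It called none of the 10 for P10 (4.7% of genes called) or for P21 (3.18%). In these comparisons too, this edgeR fit gave no unadjusted p under 0.05 for any of them and DESeq2 no call. The replicate block called 1 gene in P10 against P21 at 9 DAS.

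**Figure D4:**
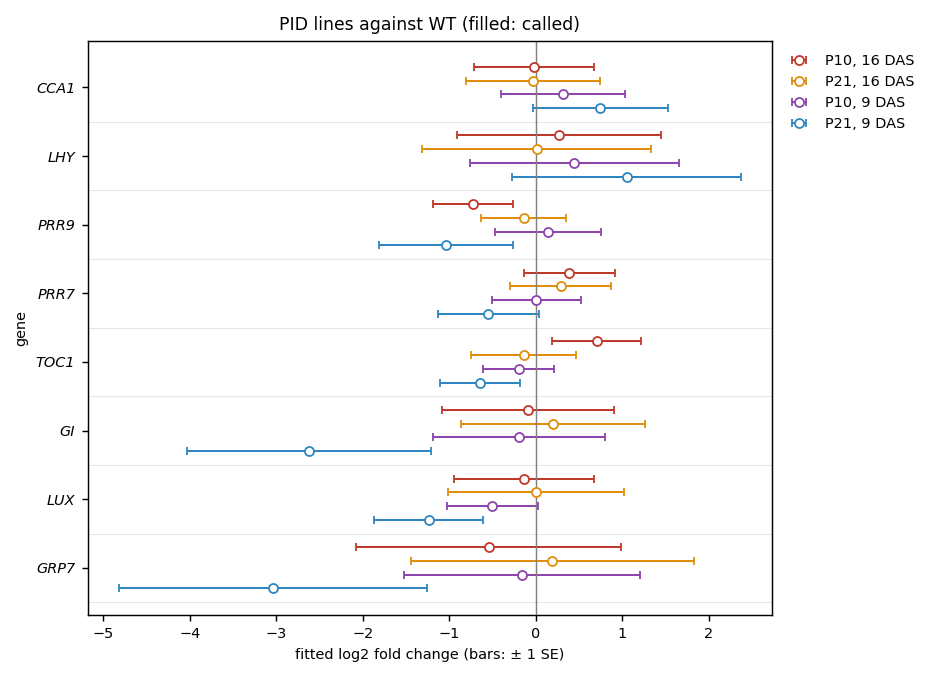
Fitted log2 fold change of each PID line against WT at 16 and 9 DAS for 8 clock genes (PRR5 and ELF4, with libraries at 0 reads, are not drawn), with bars of 1 SE; no point is filled, since none was called. The widest bars belong to GRP7, GI and LHY.

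Other genes of the clock were grouped in 4 lists, described by counts and by the median log2 fold change of 16 against 9 DAS beside that of all genes tested (−0.0277 in P10, −0.0202 in P21 and −0.0381 in WT). Of 12 morning MYB factors and LNK coactivators, all tested, 7 rose and 1 fell in P10, 3 rose in P21 and 8 rose in WT, with list medians of 1.7, 0.933 and 1.35. Over all genes tested, 16.6% rose and 14.4% fell in P10, 12.7% rose and 11% fell in P21, and 18.6% rose and 17.3% fell in WT. Without replicate 2 of P10 at 9 DAS, 5 genes of the list were called in P10 in place of 8. RVE3 (ASG4), a MYB-like factor of this family, rose in WT by a log2 fold change of 3.75 (edgeR adjusted p = 0.0011), with 29.7 to 76.4 CPM at 16 DAS and 1.48 to 7.15 CPM at 9 DAS. RVE1, which links the clock to auxin, had 268 to 352 CPM at 16 DAS and 11.8 to 80.5 CPM at 9 DAS in WT, a log2 fold change of 2.93 (edgeR adjusted p = 0.011). RVE8, an activator of evening genes, was at 110 to 161 CPM at 16 DAS and 9.38 to 102 CPM at 9 DAS in WT and was not called (log2 fold change 1.39, edgeR adjusted p = 0.18). Its 9 DAS libraries followed the order of CCA1, with replicates 2 of P10 and WT lowest at 14 and 9.38 CPM.

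Among 12 evening and repressor genes, 9 were tested, and 1 rose and 2 fell in P10, 3 fell in P21 and 5 fell in WT, with medians of −1.14, −1.5 and −1.97. All genes called lower were 14.4% in P10, 11% in P21 and 17.3% in WT. The count was 1 in P21 without its 9 DAS replicate 2, and 5 in P10 without WT 9 DAS replicate 3. ELF3, the scaffold that joins ELF4 and LUX in the evening complex, was at 22.2, 30.3 and 16.6 CPM in P10, 7.46 and 13.8 CPM in P21, and 9.25, 5.21 and 5.96 CPM in WT at 16 DAS. At 9 DAS ELF3 was at 32.9, 61.2 and 29.4 CPM in P10, 38.6 and 34.0 CPM in P21, and 36.4, 61.7 and 28.3 CPM in WT. The 16 DAS libraries of P10 thus lay above those of WT without overlap, as they did for 19.4% of all genes. Against WT at 16 DAS, ELF3 rose in P10 by a log2 fold change of 1.75 (edgeR adjusted p = 0.0079), and in P21 its fold change was 0.671 (edgeR adjusted p = 0.75). Across days it had a log2 fold change of −0.852 in P10 (edgeR adjusted p = 0.064), and fell by 1.72 in P21 (edgeR adjusted p = 0.0099) and by 2.6 in WT (edgeR adjusted p = 7.8e-05). PRR3, a relative of TOC1, was at 9.03, 7.28 and 3.17 CPM in P10, 0 and 0.922 CPM in P21, and 0, 0.745 and 0.745 CPM in WT at 16 DAS. It was called higher in P10 than in WT (edgeR adjusted p = 0.042), a call lost without any one of the 3 WT libraries at 16 DAS or without P10 replicate 1 or 2 (edgeR adjusted p between 0.078 and 0.14), without either P21 library at 9 DAS (0.058) and with no filter on low counts (0.068). JMJD5, a jumonji protein that is named here because of its values, was the third evening gene called higher in P10, at 8.21, 4.98 and 8.32 CPM in P10, 0.878 and 1.23 CPM in P21, and 1.91, 2.48 and 1.49 CPM in WT (log2 fold change 1.74, edgeR adjusted p = 0.028). Without any one of the WT libraries at 16 DAS, or P10 replicate 1 or 3, the JMJD5 call was lost (edgeR adjusted p between 0.059 and 0.11), while the ELF3 call held under every alternative tried. The 3 called genes, of 9 tested, compare with 8.1% of all genes called higher in P10 at 16 DAS, and 1 was called without P10 replicate 1, WT replicate 1 or WT replicate 3 of that day. The 4 leaf markers summed to 26800 to 31300 CPM in P10, 41100 to 43200 CPM in P21 and 35500 to 42000 CPM in WT at 16 DAS, so the P10 libraries lay below the others, and the part of this in the result was not tested. BOA, a close relative of LUX, was removed by the filter, with at most 2.44 CPM.

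**Figure D5:**
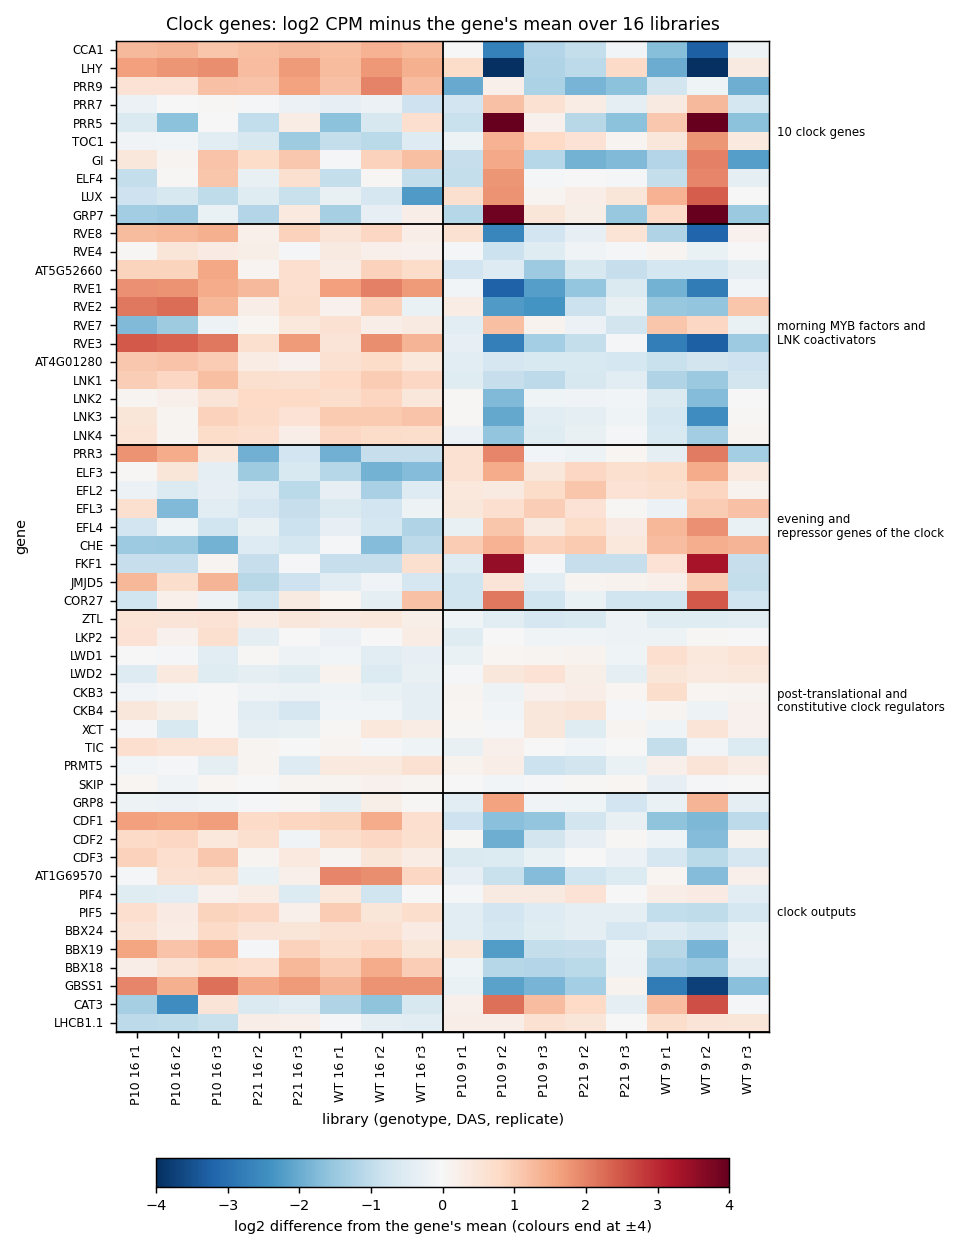
Log2 CPM of the 10 clock genes and 44 other clock genes minus each gene's mean over the 16 libraries, with libraries in columns (16 DAS left, 9 DAS right) and lists in blocks; genes without a symbol in the reference are given by locus. Columns P10 9 r2 and WT 9 r2 show low CCA1, LHY and RVE8 together with high PRR5, FKF1, GRP7 and CAT3, and the block of post-translational regulators is pale throughout.

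Of the 10 post-translational and constitutive regulators, 1 rose in P10, 1 rose and 1 fell in P21 and 1 rose and 1 fell in WT, with medians between −0.0438 and 0.0552. Over all genes 16.6% rose in P10, 12.7% rose and 11% fell in P21, and 18.6% rose and 17.3% fell in WT. In P21 the count was 0 without 9 DAS replicate 2 or 16 DAS replicate 3, and in P10 it was 2 without 9 DAS replicate 2 and 3 without 16 DAS replicate 2. ZTL, a blue-light receptor that targets TOC1 for degradation, rose by 0.839 in WT (edgeR adjusted p = 0.00022), 58.1 to 67.0 CPM at 16 DAS and 35.0 to 35.8 CPM at 9 DAS. LWD1, a WD-repeat protein, fell by 0.863 in WT (edgeR adjusted p = 0.001), with 17.9 to 22.3 CPM at 16 DAS and 33.1 to 39.2 CPM at 9 DAS. The highest of the 8 libraries at 9 DAS exceeded the lowest 1.32-fold to 2.76-fold in these 10 regulators, against at least 4.01-fold in each of the 8 clock genes with reads in every library.

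Among 14 clock outputs, 13 were tested, and 8 rose and 1 fell in P10, 4 rose in P21, and 8 rose and 2 fell in WT, with medians of 1.26, 0.919 and 1.12, beside 16.6% of all genes rising and 14.4% falling in P10, 12.7% rising in P21, and 18.6% rising and 17.3% falling in WT. GBSS1, the granule-bound starch synthase, was at 1220 to 1660 CPM at 16 DAS and 34.6 to 150 CPM at 9 DAS in WT, a log2 fold change of 4.15 (edgeR adjusted p = 0.00058). CAT3, a catalase expressed in the evening, fell in WT by 2.77 (edgeR adjusted p = 0.027), with 64.0 to 125 CPM at 16 DAS and 467, 1180 and 189 CPM at 9 DAS. That call was lost without replicate 2 of WT at 9 DAS (log2 fold change −1.9, edgeR adjusted p = 0.11) and without replicate 1 or 2 of WT at 16 DAS. GRP8, the paralog of GRP7, reached 254 CPM in P10 and 215 CPM in WT in their replicates 2 at 9 DAS, and 48.3 to 97.8 CPM in all other libraries of both days, and was not called.

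Genes most like a clock gene over the 16 libraries were ranked by the root mean square difference of log2 CPM after centring each gene, among 8415 genes with a mean of at least 50 reads, as a description. Closest to CCA1 were NDA1, an alternative NAD(P)H dehydrogenase (0.286), RUP2, a repressor of UV-B photomorphogenesis (0.35), AT2G41250 (0.357), SNRK2-8, a protein kinase (0.379), and BBX16, a B-box protein (0.388), where the SD of CCA1 itself was 1.5. NDA1 was at 296 to 504 CPM at 16 DAS and 26.7 to 152 CPM at 9 DAS, with replicates 2 of P10 and WT lowest at 27.1 and 26.7 CPM. GRP7 and PRR5 had no gene as close. For GRP7 the nearest were AT3G01310 (0.961), MEE14 (0.967), CAT3 (1.01), PHS2, an alpha-glucan phosphorylase (1.06), and AT5G62350 (1.08), and for PRR5 AT2G33830 (1.04), MEE14 (1.15), AT3G01310 (1.16), PHS2 (1.17) and CAT3 (1.17). Of these, 4 are shared by both lists, and all 6 peaked in replicate 2 of P10 or of WT at 9 DAS. The peak follows from the ranking over the same libraries, where GRP7 and PRR5 were themselves highest, and the shared genes are no separate result.

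Promoters were searched because CCA1 and LHY bind the evening element, and G-box binding factors act on several clock genes. The 500 bases before each RefSeq gene start (TAIR10.1) were scanned on both strands for the evening element AAAATATCT, the CCA1-binding site AAAAATCT and the G-box CACGTG. The evening element was found before 4 of the 10 clock genes, PRR5, TOC1, LUX and GRP7, and before 4.44% of 27443 protein-coding genes. A CCA1-binding site stood before LHY, PRR9 and PRR5 (12.5% of all genes), and a G-box before CCA1, LHY, PRR9, PRR7 and LUX (9.35% of all genes). GI and ELF4 had none of these letters in that window. No matches shared a base. The evening elements are shown with 10 bases on each side, in the direction of the gene, with the element or its reverse complement in capitals.
PRR5, chr5:8358820-8358848, minus strand: caattctactAGATATTTTttcaaatcca
PRR5, chr5:8358715-8358743, minus strand: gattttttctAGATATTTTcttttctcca
TOC1, chr5:24674802-24674830, plus strand: aaatatcatgAGATATTTTctccaagatg
LUX, chr3:17182979-17183007, plus strand: tagaagatctAAAATATCTagctaactcg
GRP7, chr2:9266615-9266643, minus strand: ttgacatatgAGATATTTTtttgctccac
GRP7, chr2:9266594-9266622, minus strand: tgctccactgAGATATTTTtctttgtccc
GRP7, chr2:9266570-9266598, minus strand: gtcccaagatAAAATATCTtttctcgcat

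GRP7 carried 3 evening elements within 76 bases of its start, in both orientations, PRR5 a pair at 292 and 187 bases, TOC1 1 at 151 bases and LUX 1 at 53 bases. The PRR5 matches lie inside the gene region of the deposited tables, which starts further upstream than the RefSeq gene. All 4 genes held their highest value of any library in replicate 2 of WT at 9 DAS, and so did PRR7, GI and ELF4, which had no evening element in the window. Of the genes alike in pattern, CAT3 and MEE14 also had the element, at 79 and 66 bases, where 4.44% of protein-coding genes had it. PHS2, in the same lists, had a G-box and no evening element. A link between the element and the pattern was not tested.
CAT3, chr1:7142883-7142911, plus strand: acctagcaaaAAAATATCTaagtgggggc
MEE14, chr2:6922209-6922237, minus strand: taccaatctaAGATATTTTacaatcttat

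The G-boxes of the morning genes and the first repressors are shown for comparison in the same way, with the G-box in capitals. None of these 4 genes had an evening element in the window.
CCA1, chr2:19245388-19245413, plus strand: gtgtatcagaCACGTGtcgacaaact
LHY, chr1:37936-37961, minus strand: acaatatcacCACGTGtcgatctgcg
PRR9, chr2:19232353-19232378, plus strand: aatagaaaccCACGTGtcatccacat
PRR9, chr2:19232425-19232450, plus strand: aggttaatgaCACGTGttaaggtgga
PRR7, chr5:642216-642241, minus strand: cccaccattaCACGTGtcagttcaaa
These G-boxes stood 193, 80, 244, 172 and 201 bases before the gene start.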

How the data were processed

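Reads were mapped by the authors with CLC Genomics Workbench v.6 at default settings to TAIR10; the strand setting of the counting is not given in the sources used here. The deposited counts are unique and total gene reads per gene region, whole numbers made by the authors without normalization. RPKM were computed by the authors from total reads, and were used only to compare levels between genes. The authors' normalized values and their own fold change, p-value and FDR columns were not used, and 394 per-sample columns in 4 tables were left out.

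The test was edgeR 4.0.16 in R 4.3.3 on unique gene reads (TMM, filterByExpr, robust quasi-likelihood, 6 group means). The SE of a log2 fold change was derived from that test, as its absolute value divided by the square root of the F statistic. The filter kept 16499 genes and removed 12143. The common BCV (biological coefficient of variation) was 18.8% on 10 residual degrees of freedom. P-values measure the spread between these libraries. On simulated data for 16 against 9 DAS in WT (16050 genes), 63 of 100 genes changed by log2 1 and 91 of 100 changed by log2 2 were called, and 9 of 15850 unchanged ones. The changed genes had at least 20 expected reads and kept their own spread. These rates do not carry over to the 10 clock genes, whose median SD of log2 CPM at 9 DAS was 1.17, beside 0.334 over all genes tested. Alternatives were DESeq2 1.42.0 size factors and Wald test, no filter, total reads, a replicate block, each library left out, and subsets of replicates.

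The members and lists were chosen with earlier results of these data known. Named genes are the 10 members, ELF3, PRR3, BOA, RVE8, GRP8, per list the 2 largest changes called in 16 against 9 DAS in WT or P10 against WT at 16 DAS, and the 5 genes nearest to CCA1, PRR5 and GRP7; JMJD5 was added after its values were seen. Promoters were read from the RefSeq annotation of TAIR10.1; 50.2% of 28009 shared loci have the same start or end as in the deposited tables.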

Additional observations from a re-analysis of the deposited data

How the results depend on the processing

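Of the counts of clock genes called, 236 values under an alternative stayed within 1.5 times the reported count and 17 did not, and no fold change of a member reversed where it was called. In 8 of the comparisons the reported count was 0, and a 0 under an alternative was taken as unchanged. The total therefore says little about the counts for 16 against 9 DAS. With DESeq2 size factors, total reads or no filter on low counts, every count stayed within 1.5 times the reported count. The DESeq2 Wald test called 5 genes in 16 against 9 DAS in P10 and 2 in P21. Without replicates 2 of the P10 and WT groups at 9 DAS, 4 were called in P21, a choice of libraries made with their clock gene values known. With every group limited to replicates 2 and 3, 1 was called in P10 (TOC1) and 2 in P21. Leaving out one library at a time gave 0 to 4 calls in P10, 1 to 3 in P21 and 3 to 6 in WT, and 0 in each of the 8 other comparisons.

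Replicate numbers showed no regular pairing of the samples. At 9 DAS the deviations of same-numbered WT and P10 libraries correlated at −0.118, 0.467 and −0.0883. Same-numbered replicates 2 and 3 correlated at 0.204 and 0.333 between WT and P21, and at 0.218 and −0.171 between P10 and P21. Not every library correlated best with its own number. These values cannot settle whether same-numbered libraries shared a batch. With a replicate block within each day, 1 gene (PRR5, few reads) was called in P21 against WT and 1 in P10 against P21 at 9 DAS, and 5 in 16 against 9 DAS in P10, 3 in P21 and 6 in WT.

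Depth limits PRR5 and ELF4, at 0 to 7 reads in most libraries, and LUX at 16 DAS, at 1 to 16 reads.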
